A study of Mus musculus with 10 samples.

Results

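The proteasome of hippocampal microglia was described here through the 51 genes, of 19782 in the deposited table, whose symbols begin with Psma to Psmg followed by a digit. Of these, 50 passed the filter on low counts and were tested. Microglia had been sorted as CD45low CD11b+ cells, and RNA was sequenced from 3 groups. The 5xFAD repopulated group (3 libraries) came from mice of the 5xFAD line, which carries human transgenes with familial Alzheimer disease mutations driven by the neuronal Thy1 promoter. These mice received PLX3397, an inhibitor of the CSF1 receptor that microglia need to survive, at 290 mg/kg of chow for 1 month from 4 months of age, and then a normal diet for 1 month. The 5xFAD control group (3 libraries) carried the same transgenes on normal diet throughout, and the wild-type group (4 libraries) was on normal diet without them. Ages of the control and wild-type mice, the sex of the animals and whether each library was 1 animal are not given in the labels, so p-values measure only the spread between these libraries, which may be technical.

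The proteasome is the cell's main machine for degrading ubiquitin-tagged proteins. Its 20S core is a barrel of alpha rings, which gate the entrance, around beta rings, which hold the active sites. The active sites sit in the constitutive beta subunits encoded by Psmb6 (caspase-like), Psmb7 (trypsin-like) and Psmb5 (chymotrypsin-like). Interferon-inducible immunoproteasome subunits encoded by Psmb9, Psmb10 and Psmb8 can take those positions in newly built particles and favour peptides that fit MHC class I. The core is capped by the 19S particle, in which ATPases unfold the substrate and non-ATPase subunits bind and remove ubiquitin, or by activators such as PA28 alpha and beta, encoded by Psme1 and Psme2 and also inducible by interferon gamma. Cells of the macrophage lineage, microglia included, are known to carry immunoproteasome.

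Total estimated counts ran from 18501136 to 23286814 per library, and 12505 genes were tested. Microglial markers (10 genes) summed to 40163 to 53427 library-scaled counts (CPM) in repopulated libraries, 47298 to 52373 in control libraries and 45876 to 53695 in wild-type libraries, and each of them was detected in every library. Single markers moved: Tmem119, P2ry12, Cx3cr1, Csf1r and Sall1 (5 of 10) fell in control against wild type, with log2 fold changes of -1.29 to -0.61 and without overlap between the groups. The median of the 10 was -0.31. Tmem119 rose in repopulated against control (0.88) and Cx3cr1 fell in repopulated against wild type (-0.59). The part of this in the values of the proteasome genes was not tested. Markers of T or NK cells summed to at most 2.04 CPM in any library. Control 1, control 3 and wild-type 2 had almost no transcripts of 4 Y-linked genes (5.12 to 16.0 CPM, against 341.87 to 483.77 CPM in the others). Wild-type 3 stood apart on the second principal component and had more transcripts of erythrocyte markers (281 CPM, against at most 20.4 in any other library) and neuronal markers (60.6 CPM, against at most 11.96). In bulk RNA, fewer cells with a transcript and less of it per cell cannot be told apart.

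Values are given on 2 scales, which differ by a shift common to most genes. Differences were tested on CPM scaled by TMM, on which the median log2 fold change of all tested genes was -0.06 for control against wild type. Levels of different genes were compared on TPM, a measure that divides by gene length and is scaled to the same library sum. On TPM, which do not carry the TMM scaling, the median log2 ratio of group means over all tested genes was 0.15 for repopulated against control, -0.21 for repopulated against wild type and -0.39 for control against wild type. Changes below are on the CPM scale unless TPM is named.

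Averaged over the 10 libraries, Psmb6 led the members with a level of 653 TPM. It was followed by Psme2 at 518 TPM, the structural beta subunits Psmb3 at 456 TPM and Psmb2 at 417 TPM, and the alpha subunit Psma3 at 416 TPM. The immunoproteasome subunit Psmb8 came next at 394 TPM. The 7 alpha subunits lay between 161 TPM for Psma6 and 416 TPM for Psma3. Among the 6 ATPases of the 19S cap the level was lowest for Psmc6 (95 TPM) and highest for Psmc3 (288 TPM). The 11 non-ATPase subunits were lowest for Psmd3 (15.2 TPM) and highest for the ubiquitin receptor Psmd4 (215 TPM). Of the other activators, Psme3 (PA28 gamma, a nuclear activator) stood at 13.3 TPM and Psme4 (PA200) at 23.6 TPM, and the inhibitor Psmf1 (PI31) at 25.98 TPM. Testis-type Psma8 averaged 3.9 TPM and thymus-type Psmb11 had 1 to 13 counts per library, so that neither tissue-restricted core subunit was a substantial transcript here.

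**Figure D1:**
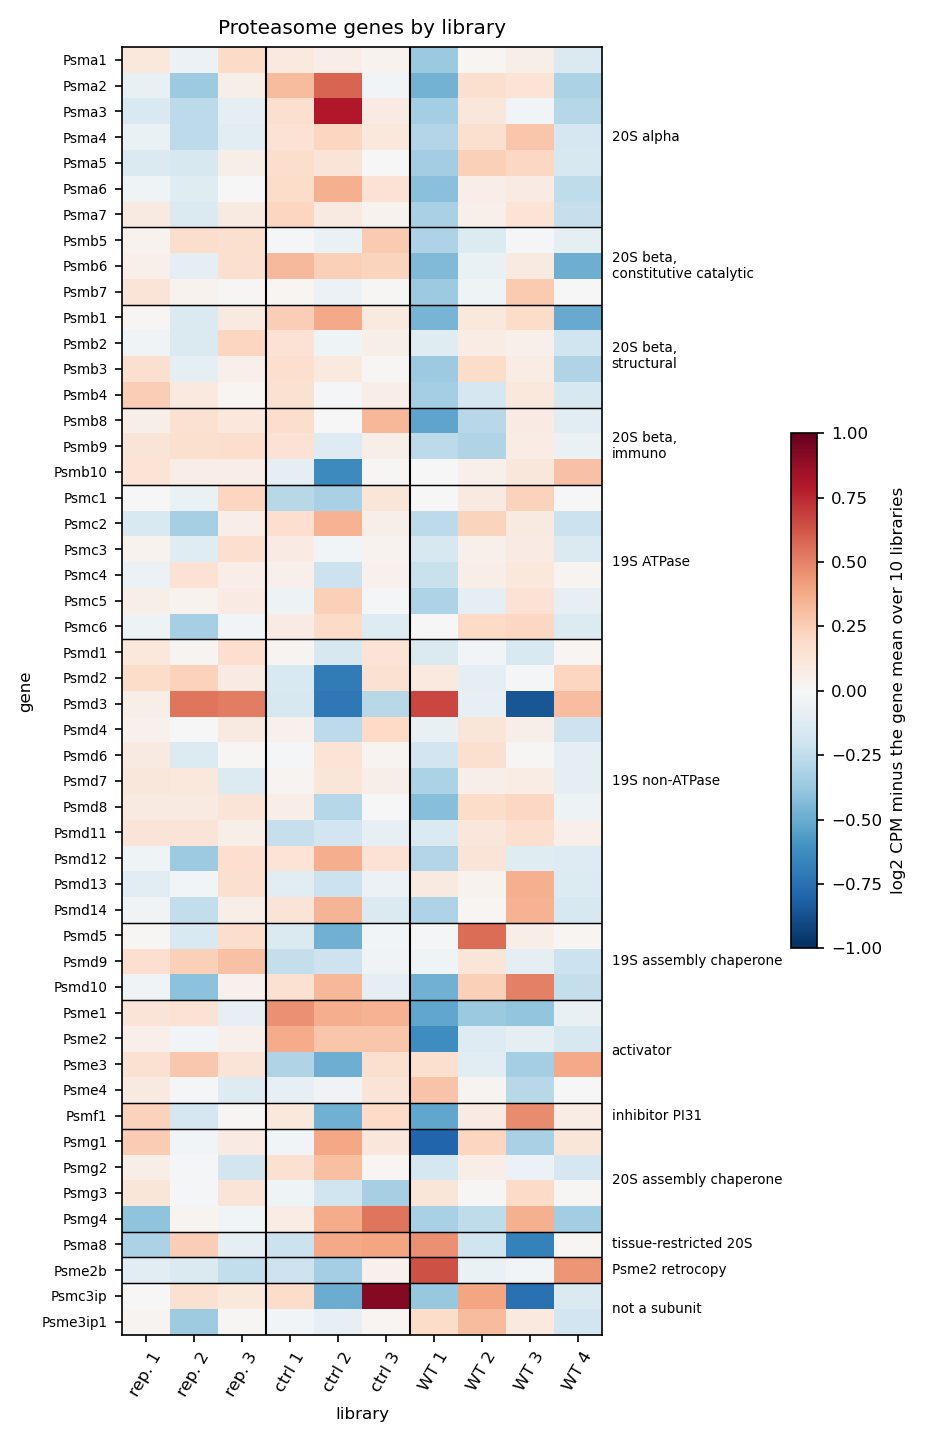
Heat map of the 50 tested proteasome genes (rows, by class) in the 10 libraries (columns, repopulated, control, wild type), coloured by log2 CPM minus the gene's mean over all libraries, with colours ending at 1 in either direction. Psme1 and Psme2 are above their means in all 3 control libraries and below them in all 4 wild-type libraries.

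Control 5xFAD microglia were first compared with wild-type microglia. Of the 50 tested members, 3 rose and 0 fell: the PA28 subunits Psme1 and Psme2 and the constitutive catalytic subunit Psmb6. Among all genes tested, 10.1% rose, 8.04% fell and 18.1% did either, so 6% of the members against 10.1% of all genes rose. At an unadjusted p under 0.05 there were 12 members (24%), against 31.8% of all tested genes. The members' median log2 fold change was 0.11, against -0.06 over all tested genes, and 33 of 50 were above 0.

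Psme1 encodes PA28 alpha (Entrez 19186, chromosome 14, 55578494 to 55581527 in GRCm38.p6). Its level was 132, 124 and 122 CPM in control libraries 1 to 3, against 67.0, 73.9, 73.0 and 91.0 CPM in wild-type libraries 1 to 4. The groups did not overlap. Psme1 rose 1.65-fold, at 125.7 ± 5.21 CPM in control and 76.2 ± 10.3 CPM in wild type (SD, n = 3 and 4), with a log2 fold change of 0.72 (SE 0.13, 95% interval 0.44 to 1.00, edgeR adjusted p = 0.00144). Its mean was also higher on TPM, by 0.38 on the log2 scale.

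Psme2 encodes the partner subunit PA28 beta (Entrez 19188, chromosome 14, 55587440 to 55591101), and its gene lies near Psme1 on the opposite strand. Its level was 276, 260 and 260 CPM in control libraries 1 to 3, against 139, 196, 200 and 192 CPM in wild-type libraries 1 to 4. The groups did not overlap, and wild-type 1 was the lowest of the 10 libraries. Psme2 rose 1.46-fold, with a log2 fold change of 0.54 (SE 0.13, 95% interval 0.26 to 0.83, edgeR adjusted p = 0.0113). Its mean was higher on TPM as well, by 0.21 on the log2 scale. Without control 1 the adjusted p was 0.0545. A fit without the 3 libraries that lacked Y-linked transcripts, in which control 2 stood alone for its group and was assumed to vary like the others, gave an adjusted p of 0.0652 for Psme1 and 0.1248 for Psme2.

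Psme2b is an intronless copy of Psme2 on chromosome 11 (48945345 to 48946410), so estimated counts may split reads between the pair and both values are uncertain. Psme2b had 37.2, 33.8 and 44.3 CPM in control libraries, against 66.9, 41.0, 42.1 and 58.3 CPM in wild-type libraries, with a log2 fold change of -0.44 that did not pass (edgeR adjusted p = 0.107). It made up 11.5% to 14.6% of the summed CPM of the pair in control libraries and 17.3% to 32.4% in wild-type libraries, with the highest share in wild-type 1, where Psme2 was lowest. Summed over both genes, control libraries had 313, 294 and 304 CPM and wild-type libraries had 206, 237, 242 and 250 CPM. On the sum the groups still did not overlap, at 303.7 ± 9.76 CPM in control and 233.8 ± 19.2 CPM in wild type (SD, n = 3 and 4); this sum was looked at after the values of both genes were seen and was not tested.

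The RefSeq promoter windows of GRCm38.p6, which run from 250 bases before to 50 bases after the start of a transcript, are shown for Psme1 and Psme2 because this pair carried the clearest change, and for Psmb8, Psmb9 and Psmb6, which stand for the inducible and the constitutive catalytic subunits. The search covered 3 motifs on both strands, the core of the interferon-stimulated response element (GAAA, any 2 bases, GAAA), the gamma-activated site (TTCNNNGAA) and the core of the antioxidant response element (TGACNNNGC), and matches are in capitals. No matches of different motifs overlapped in the members' windows. A match describes the letters and is not evidence that a factor binds.
Psme1, chr14:55578244-55578543, plus strand: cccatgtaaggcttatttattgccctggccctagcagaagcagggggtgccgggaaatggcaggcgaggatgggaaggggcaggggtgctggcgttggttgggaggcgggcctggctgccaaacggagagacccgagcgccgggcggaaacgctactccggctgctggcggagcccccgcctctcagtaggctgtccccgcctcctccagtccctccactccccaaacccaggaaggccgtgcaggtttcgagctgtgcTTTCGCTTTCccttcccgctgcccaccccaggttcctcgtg
Psme2, chr14:55590972-55591271, minus strand: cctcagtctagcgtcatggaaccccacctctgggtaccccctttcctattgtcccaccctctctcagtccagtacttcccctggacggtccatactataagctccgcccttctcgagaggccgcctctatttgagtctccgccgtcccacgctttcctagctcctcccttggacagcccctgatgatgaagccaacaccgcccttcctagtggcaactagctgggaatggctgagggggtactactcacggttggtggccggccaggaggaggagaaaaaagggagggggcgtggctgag
Psmb8, chr17:34197945-34198244, plus strand: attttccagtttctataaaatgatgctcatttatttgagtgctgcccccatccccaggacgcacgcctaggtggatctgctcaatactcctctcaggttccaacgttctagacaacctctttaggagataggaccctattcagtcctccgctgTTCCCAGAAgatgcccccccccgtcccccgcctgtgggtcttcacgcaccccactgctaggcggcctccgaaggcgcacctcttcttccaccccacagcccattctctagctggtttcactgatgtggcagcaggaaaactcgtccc
Psmb9, chr17:34187281-34187580, minus strand: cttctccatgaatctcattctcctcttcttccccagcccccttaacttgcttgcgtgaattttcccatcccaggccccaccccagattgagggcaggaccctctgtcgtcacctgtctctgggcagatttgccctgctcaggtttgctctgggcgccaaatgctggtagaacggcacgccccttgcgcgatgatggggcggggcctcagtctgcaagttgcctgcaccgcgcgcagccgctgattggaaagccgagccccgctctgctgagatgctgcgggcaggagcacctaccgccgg
Psmb6, chr11:70525107-70525406, plus strand: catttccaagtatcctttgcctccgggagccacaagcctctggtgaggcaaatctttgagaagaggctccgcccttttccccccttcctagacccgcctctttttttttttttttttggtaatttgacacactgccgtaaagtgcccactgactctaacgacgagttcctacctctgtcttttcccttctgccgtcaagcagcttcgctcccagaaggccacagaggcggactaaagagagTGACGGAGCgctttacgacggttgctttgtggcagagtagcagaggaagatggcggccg

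The capitals in Psme1 are the interferon-response core, read on the minus strand at bases 9 to 18 after the start. Psme2 had no match to any of the 3 motifs in this window or in the window of its second start. In Psmb8 the capitals are the gamma-activated site at bases -97 to -89, and in Psmb6 the antioxidant core at bases -9 to -1. Psmb9 and Psmb10 held none of the 3, and the Psmb9 window overlaps the start of Tap1, the peptide transporter gene that lies next to it on chromosome 17. Of the 51 members, 43 had a window in the table. The interferon-response core was found in 5 of the 43 (Psmb3, Psmd4, Psmd9, Psme1 and Psmg4), or 10.6% of their 47 windows, against 3.44% of all 32851 windows. The gamma-activated site was found in 3 (Psmb8, Psmd2 and Psmg1), or 6.38% of windows against 8.3% of all windows. The antioxidant core was found in 6 (Psmb5, Psmb6, Psmc6, Psmd12, Psmd9 and Psme4), or 12.8% against 12.4%.

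Psmb6 encodes the constitutive caspase-like subunit beta 1 (Entrez 19175, chromosome 11, 70525324 to 70527858). Its level was 411, 388 and 384 CPM in control libraries 1 to 3, against 242, 313, 349 and 234 CPM in wild-type libraries 1 to 4. The groups did not overlap, and wild-type 3 was the highest wild-type library. Psmb6 rose 1.38-fold, with a log2 fold change of 0.47 (SE 0.15, 95% interval 0.15 to 0.78, edgeR adjusted p = 0.0385). On TPM its mean was higher by 0.14 on the log2 scale. The call was lost in 11 of 22 other settings, with adjusted p between 0.00949 and 0.211 over all of them. Single libraries that ended it were control 1 (0.127 without it), control 2 (0.0718), control 3 (0.0714), wild-type 1 (0.0928), wild-type 4 (0.112) and repopulated 1 (0.0587).

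The immunoproteasome subunits did not pass in this comparison. Psmb8, the inducible chymotrypsin-like subunit (Entrez 16913, chromosome 17, 34198195 to 34201454), had 277, 247 and 308 CPM in control libraries, against 170, 203, 260 and 228 CPM in wild-type libraries. The groups overlapped through control 2 and wild-type 3, and the log2 fold change was 0.37 (95% interval 0.06 to 0.67, adjusted p = 0.0947). Without wild-type 3, whose level was the highest of its group, Psmb8 passed (edgeR adjusted p = 0.0258). Psmb9, the inducible caspase-like subunit (Entrez 16912, chromosome 17, 34182030 to 34187330), had 69.0, 56.9 and 64.9 CPM in control libraries and 52.0, 50.6, 65.7 and 59.5 CPM in wild-type libraries, with a log2 fold change of 0.16 (95% interval -0.13 to 0.44, adjusted p = 0.44). Psmb10, the inducible trypsin-like subunit (Entrez 19171, chromosome 8, 105935728 to 105938392), had 81.9, 56.6 and 88.5 CPM in control libraries and 87.8, 90.8, 94.8 and 108 CPM in wild-type libraries. Its log2 fold change was -0.33 (95% interval -0.66 to -0.01, adjusted p = 0.144), and control 2 was the lowest of the 10 libraries. Over the 22 other settings the Psmb10 estimate ran from -0.76 to -0.07. The 3 inducible subunits therefore had estimates of different sign and none past the threshold.

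The other constitutive active-site subunits were Psmb5 (Entrez 19173, chromosome 14, 54614120 to 54617995) and Psmb7 (Entrez 19177, chromosome 2, 38588046 to 38643952). Psmb5 had 36.0, 34.8 and 43.6 CPM in control libraries and 29.3, 33.0, 36.0 and 34.1 CPM in wild-type libraries, with a log2 fold change of 0.20 (95% interval -0.09 to 0.50). Psmb7 had 64.4, 60.8 and 64.0 CPM in control libraries and 49.4, 61.5, 76.0 and 63.6 CPM in wild-type libraries, with a log2 fold change of 0.01 (95% interval -0.30 to 0.32). Both overlapped between the groups and neither passed.

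**Figure D2:**
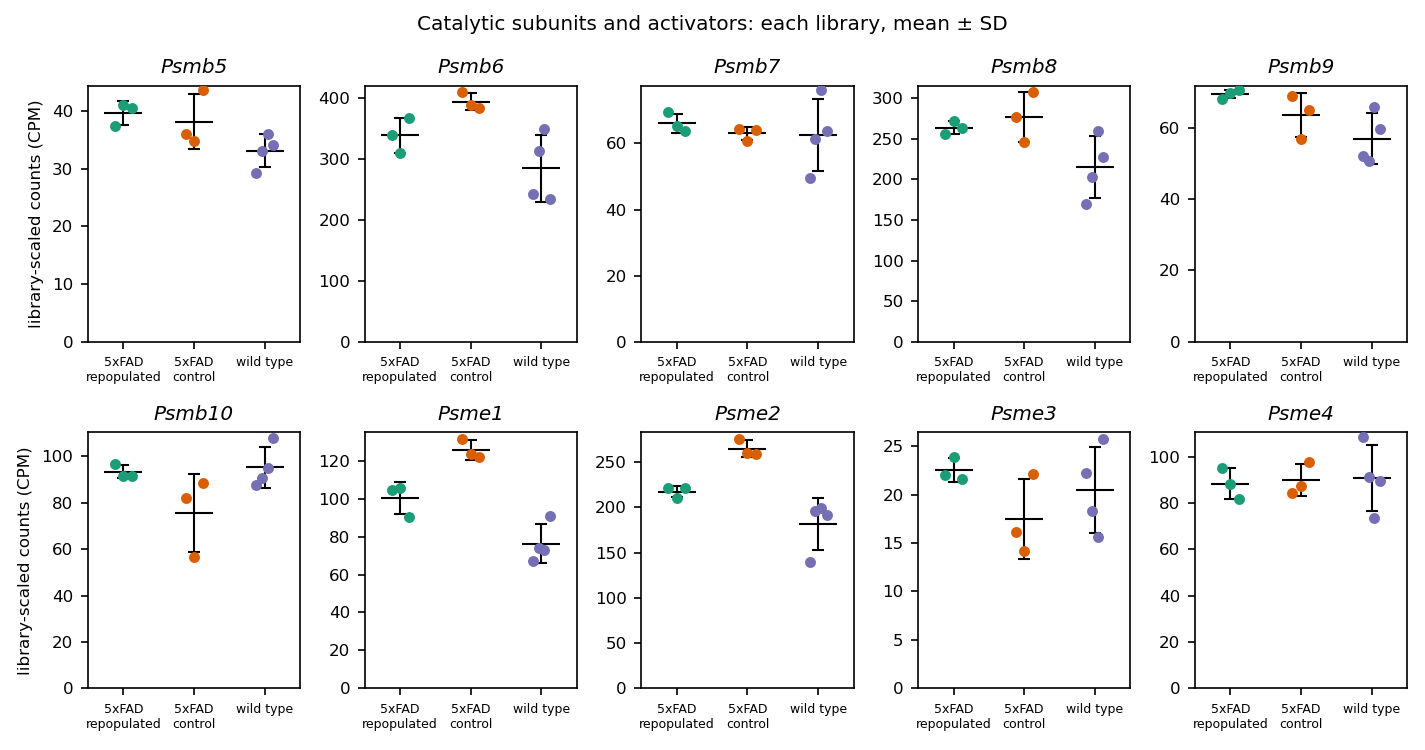
CPM of the 6 catalytic subunits and 4 activators in each library (points) with the group mean ± SD, for repopulated, control and wild-type groups, each panel starting at 0. The control libraries stand at 122 to 132 CPM for Psme1 and 260 to 276 CPM for Psme2, above every other library.

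The constitutive core had small positive estimates in the main fit. All 14 of its subunits had a log2 fold change above 0 (median 0.20), against 5710 of 12505 over all tested genes, yet Psmb6 alone passed. With upper-quartile scaling 13 of 14 were above 0. The median level of the core, relative to each gene's mean over all libraries, was -0.35 and -0.21 in wild-type 1 and 4. It was 0.07 and 0.09 in wild-type 2 and 3, inside the range of control libraries 1 to 3 (0.16, 0.11 and 0.06). With GC and length correction the median log2 fold change of the core was 0.26, against 0.17 over all genes and 0.19 for members of the 19S cap. On TPM 5 of 14 had a higher mean in control, against 2909 of 12505 over all tested genes. The median log2 ratio of mean TPM was -0.14 for the core, against -0.39 over all tested genes. The direction therefore depends on the scale, while the median of the core lay above that of all tested genes on both scales. In the core, Psma3 had the largest estimate of the subunits that did not pass, at 0.51 (edgeR adjusted p = 0.0558). Psma3 was called as higher in 8 of 22 other settings, DESeq2 among them. Its level was 562, 879 and 534 CPM in control libraries, against 398, 544, 495 and 414 CPM in wild-type libraries, so control 2 lay far above all other libraries and control 3 below wild-type 2. Control 2 also had the highest summed neutrophil markers of the 10 libraries (302 CPM, with 16.9 to 237 CPM in the others), and the part of these in the result was not tested. The other alpha subunits nearest the threshold were Psma6 at 0.35 (adjusted p = 0.107) and Psma2 at 0.41 (adjusted p = 0.14). Among the structural beta subunits Psmb1 was nearest, at 0.38 (adjusted p = 0.136), and Psmb2 furthest, at 0.10.

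The 17 subunits of the 19S cap that match the symbol pattern were spread about 0, with 9 of 17 above it and a median log2 fold change of 0.03. None of these 6 ATPases or 11 non-ATPase subunits passed. The lid subunit Sem1 and the ubiquitin receptor Adrm1 have other symbols. Both passed, Sem1 higher and Adrm1 lower, and they are given below with the cofactors. The ATPases ran from -0.23 for Psmc1 to 0.22 for Psmc2. The non-ATPase subunits ran from -0.48 for Psmd3 to 0.32 for Psmd12, and Psmd12 was the only one whose groups did not overlap. Psmd3, a scaffold subunit of the lid, had 15.3, 10.3 and 14.0 CPM in control libraries and 27.2, 16.1, 9.36 and 21.2 CPM in wild-type libraries, where wild-type 3 was the lowest of all. Without wild-type 3 it passed as lower in control (edgeR adjusted p = 0.0315). For Psmd2, a scaffold of the base, the log2 fold change was -0.25, and control 2 was its lowest library at 69.3 CPM.

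Assembly factors, other activators and the inhibitor likewise did not pass. Among chaperones of the core, Psmg4 (PAC4) was at 0.46, Psmg1 (PAC1) at 0.31, Psmg2 (PAC2) at 0.24 and Psmg3 (PAC3) at -0.27. Among chaperones of the 19S base, Psmd5 (S5b) was at -0.38 without overlap between the groups, with 72.6, 57.7 and 78.7 CPM in control and 79.8, 118, 84.0 and 81.3 CPM in wild type (adjusted p = 0.124). Psmd9 (p27) was at -0.10 and Psmd10 (gankyrin) at 0.08. Psme3 was at -0.23 with 16.1, 14.2 and 22.2 CPM in control and 22.2, 18.3, 15.6 and 25.8 CPM in wild type, and Psme4 at -0.02 with 84.5, 87.3 and 97.7 CPM in control and 109, 91.2, 73.7 and 89.7 CPM in wild type. The inhibitor Psmf1 was at -0.10. Over all members, 5 were higher without overlap (Psme1, Psme2, Psmb6, Psma6 and Psmd12) and 2 lower (Psmd5 and Psmg3), against 14.1% and 12.6% of all tested genes (26.7% either way).

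The symbol pattern also takes 2 genes that are not subunits. Psmc3ip encodes a recombination factor that binds PSMC3 and Psme3ip1 a protein that binds PA28 gamma. Neither passed in any of the 3 comparisons.

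**Figure D3:**
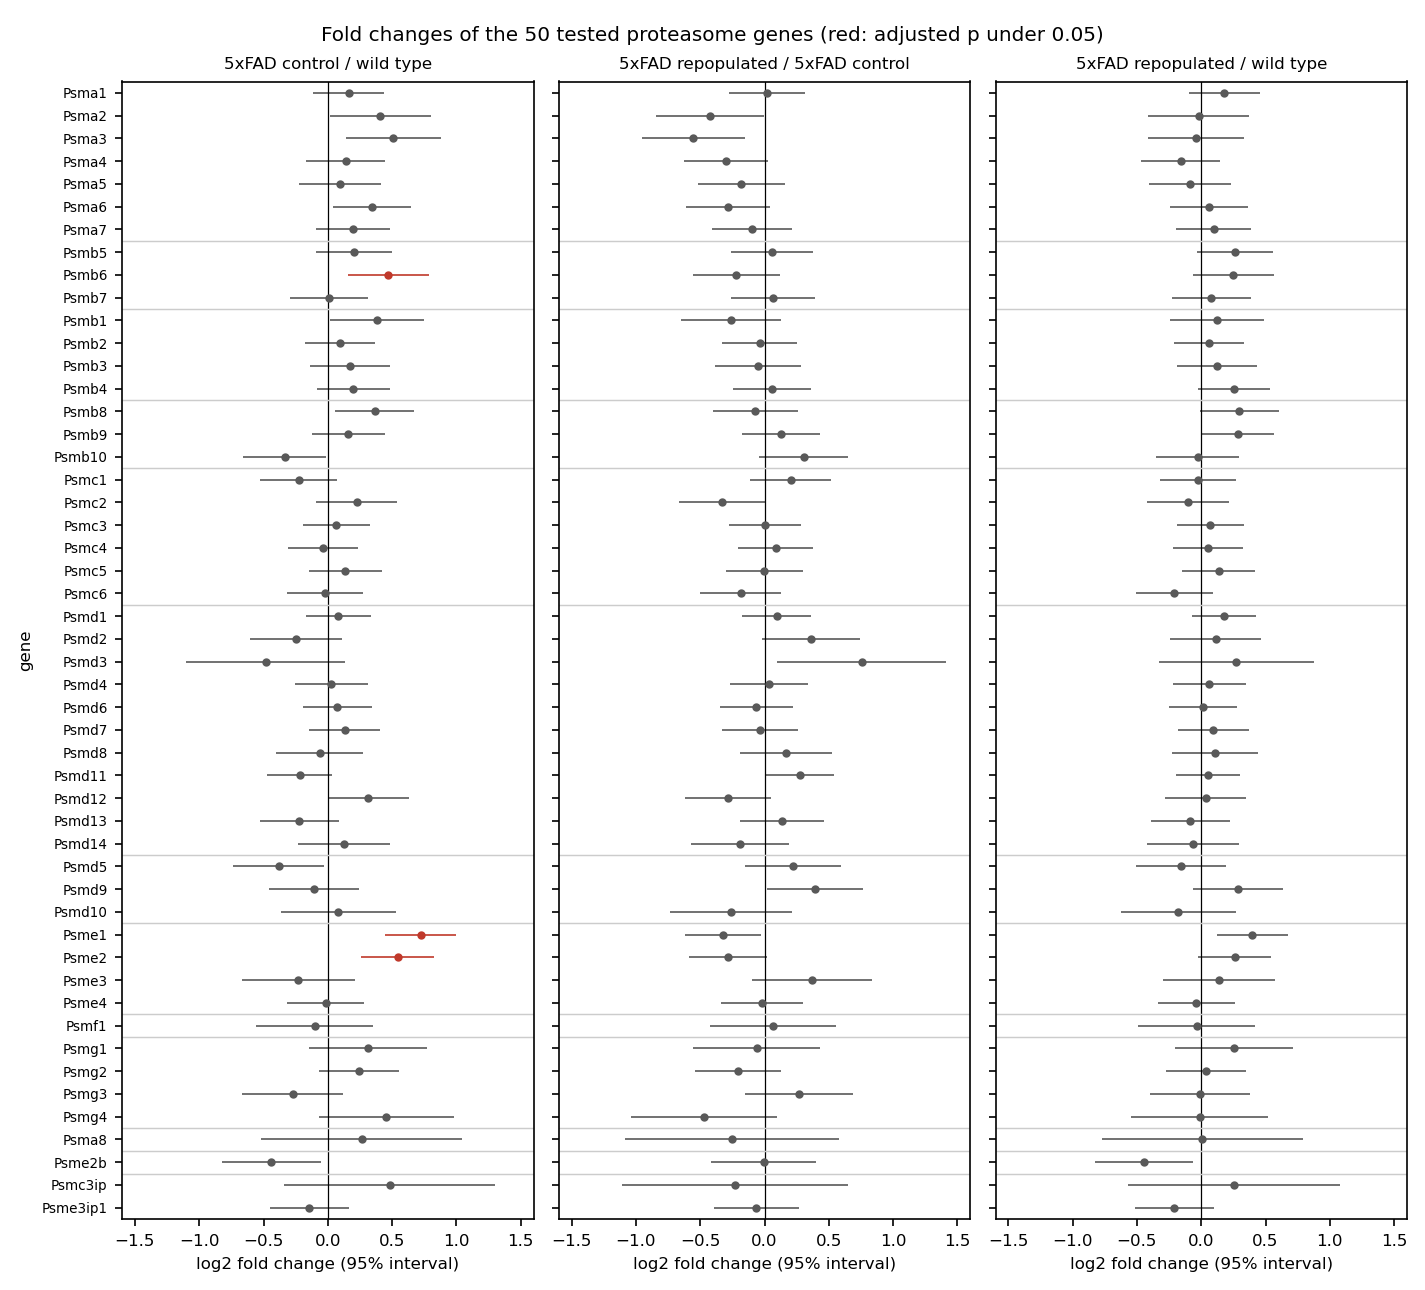
Log2 fold change with its 95% interval for each of the 50 tested proteasome genes in the 3 comparisons, with red marking an adjusted p under 0.05. Red points are seen for Psme1, Psme2 and Psmb6 in control against wild type and for no gene in the comparisons of the repopulated group.

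Repopulated microglia were then compared with control 5xFAD microglia. No member passed, where 0.568% of all tested genes did (0.352% higher and 0.216% lower), and 6 of 50 members (12%) had an unadjusted p under 0.05, against 18.5% of all tested genes. DESeq2 called 1 member, Psma3 as lower, or 2.17% of the members it gave a p for, where it called 9.42% of all such genes, and limma-voom called 0 members. The members' median log2 fold change was -0.04, against 0.00 over all tested genes.

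The PA28 pair had estimates below 0 that did not pass. Psme1 had 105, 106 and 90.6 CPM in repopulated libraries 1 to 3, against 132, 124 and 122 CPM in control libraries. The groups did not overlap, and the log2 fold change was -0.32 (SE 0.14, 95% interval -0.62 to -0.03, edgeR adjusted p = 0.231). Psme2 had 221, 210 and 222 CPM in repopulated libraries, against 276, 260 and 260 CPM in control libraries, again without overlap, with a log2 fold change of -0.29 (SE 0.14, 95% interval -0.59 to 0.02, adjusted p = 0.302). With GC and length correction Psme1 passed as lower (edgeR adjusted p = 0.0366), as did 0.936% of all genes, in a fit where the median of all genes was -0.14.

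Catalytic subunits had small estimates. Psmb6 had 340, 309 and 367 CPM in repopulated libraries, all under the control libraries, with a log2 fold change of -0.22 (95% interval -0.56 to 0.12). Psmb8 had 256, 272 and 264 CPM in repopulated libraries, inside the control range, and its log2 fold change was -0.07 (95% interval -0.40 to 0.26). Psmb9 had 68.1, 69.8 and 70.5 CPM (0.13, 95% interval -0.18 to 0.43), and Psmb10 had 96.7, 91.7 and 91.7 CPM (0.30, 95% interval -0.04 to 0.65). Of these, Psmb10 was higher in each repopulated library than in any control library. Psmb5 had 37.3, 41.0 and 40.6 CPM (0.06, 95% interval -0.26 to 0.37) and Psmb7 had 69.4, 65.2 and 63.9 CPM (0.07, 95% interval -0.26 to 0.39). None of the 6 passed.

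Elsewhere in the complex the largest estimates were Psmd3 and Psma3. Psmd3 had 17.8, 24.7 and 24.3 CPM in repopulated libraries, against 15.3, 10.3 and 14.0 CPM in control libraries, with a log2 fold change of 0.75 (SE 0.31, edgeR adjusted p = 0.208). It passed as higher when the compared groups were fitted alone (edgeR adjusted p = 0.0472). Psma3 had 453, 421 and 473 CPM in repopulated libraries, against 562, 879 and 534 CPM in control libraries, with a log2 fold change of -0.55 (SE 0.19, adjusted p = 0.148). Control 2 stood far above the other 2 control libraries, which were themselves above all 3 repopulated libraries. Psmd9 was at 0.39, Psmd11 at 0.27 and Psmd2 at 0.36, while Psma2 was at -0.43, Psmc2 at -0.33 and Psmg4 at -0.47. Psme3 was at 0.37 and Psme4 at -0.02. The alpha subunits gave 6 of 7 estimates below 0 and the non-ATPase subunits 7 of 11 above 0. In this fit the median was -0.14 for the constitutive core and 0.04 for the 17 members of the 19S cap. With GC and length correction the medians were -0.14 and -0.10, where that of all genes was -0.14, and 4 of the 17 were above 0. The difference between core and cap was therefore small after that correction. Over all members, 6 were higher without overlap (Psmd3, Psmd8, Psmd9, Psmd11, Psmg3 and Psmb10) and 8 lower (Psme1, Psme2, Psmb6, Psmb1, Psma3, Psma4, Psma6 and Psmg4), against 15% and 15.7% of all tested genes. Dendritic cell markers (5 genes) summed to 12.1 to 15.3 CPM in repopulated libraries and 29.8 to 72.3 CPM in control libraries, and their part in these values was not tested.

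Repopulated microglia were finally compared with wild-type microglia. Again 0 members passed, where 4.18% of all tested genes did (3.4% higher and 0.784% lower), with 3 members (6%) at an unadjusted p under 0.05 (Psme1, Psmb9 and Psme2b), against 15.1% of all tested genes. DESeq2 and limma-voom called 0 as well. Psme1 came nearest, at 105, 106 and 90.6 CPM in repopulated libraries and 67.0, 73.9, 73.0 and 91.0 CPM in wild-type libraries. Its groups overlapped at repopulated 3 and wild-type 4, and the log2 fold change was 0.40 (SE 0.13, 95% interval 0.12 to 0.67, edgeR adjusted p = 0.123). Psme2 was at 0.26 (95% interval -0.03 to 0.54) with no overlap between the groups.

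The immunoproteasome subunits Psmb8 and Psmb9 were both at 0.29 (95% intervals -0.01 to 0.60 and 0.00 to 0.57, adjusted p = 0.363 and 0.327), and Psmb10 was at -0.03 (95% interval -0.35 to 0.29). The constitutive partners gave similar sizes, with Psmb5 at 0.26, Psmb6 at 0.25 and Psmb7 at 0.08. Psme3 was at 0.14 and Psme4 at -0.04. Psme2b was at -0.45 (adjusted p = 0.238), with 39.9, 38.8 and 36.1 CPM in repopulated libraries, all under the wild-type libraries. Members higher without overlap were 5 (Psme2, Psmb5, Psmb9, Psmd1 and Psmd9) and 1 was lower (Psme2b), against 9.17% and 6.81% of all tested genes. All 3 comparisons share libraries, so their values for a gene are not independent of each other.

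The balance of immunoproteasome and constitutive subunits was then read within each library, as the share of TPM that the inducible gene took of itself and the constitutive gene for the same position. A share within a library does not depend on the scale between libraries. It was taken from deposited TPM without GC and length correction, so differences in base composition between libraries could still enter it. Transcripts of Psmb8 far outnumbered those of Psmb5 per length in all groups. The Psmb8 share was 81.4%, 80.9% and 80.6% in repopulated libraries, 83.2%, 82.0% and 81.9% in control libraries, and 78.9%, 79.7%, 82.2% and 81.0% in wild-type libraries. At the caspase-like position the constitutive gene was the larger one. The Psmb9 share was 20.8%, 22.9% and 20.3% in repopulated libraries, 18.2%, 15.9% and 18.2% in control libraries, and 22.2%, 17.5%, 20.1% and 25.2% in wild-type libraries. The trypsin-like position was near balance, with a Psmb10 share of 48.8%, 49.0% and 49.5% in repopulated libraries, 46.7%, 39.2% and 48.9% in control libraries, and 55.1%, 50.4%, 45.8% and 53.6% in wild-type libraries.

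The order of the 3 positions held in each of the 10 libraries, with Psmb8 highest and Psmb9 lowest in share. Repopulated and control libraries did not overlap for Psmb8 (81.0 ± 0.42% in repopulated and 82.3 ± 0.72% in control, SD, n = 3 each) or for Psmb9 (21.4 ± 1.36% in repopulated and 17.4 ± 1.29% in control). As log2 ratios, repopulated minus control was -0.13 for Psmb8 over Psmb5, 0.36 for Psmb9 over Psmb6 and 0.24 for Psmb10 over Psmb7. Exact two-sided permutation tests over libraries gave p = 0.1, 0.1 and 0.2, and 0.1 is the smallest p that 3 against 3 libraries allow. Control minus wild type was 0.18, -0.35 and -0.37 for the same ratios, with exact permutation p = 0.143, 0.171 and 0.143. Repopulated minus wild type was 0.04, 0.02 and -0.12, with exact permutation p = 0.629, 0.914 and 0.343. After Benjamini-Hochberg adjustment over the 9 tests the values lay between 0.3 and 0.914. With 3 against 3 libraries no p under 0.05 was possible. Groups of 3 and 4 libraries also leave few arrangements, so the tests do not show that the balance was alike in the groups. Without control 2 the Psmb10 ratio was 0.076 for repopulated minus control and -0.20 for control minus wild type. For repopulated minus wild type it was -0.05, -0.23 and -0.08 without wild-type 1, 3 and 4. In the estimates of control against wild type the Psmb8 ratio went one way and the Psmb9 and Psmb10 ratios the other. The edgeR estimates of single genes moved over the 22 other settings, GC and length correction among them. In repopulated against control Psmb9 ran from -0.25 to 0.29 and Psmb6 from -0.28 to -0.14. In control against wild type Psmb9 ran from -0.04 to 0.53 and Psmb6 from 0.36 to 0.58. The ratios were not recomputed with that correction.

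**Figure D4:**
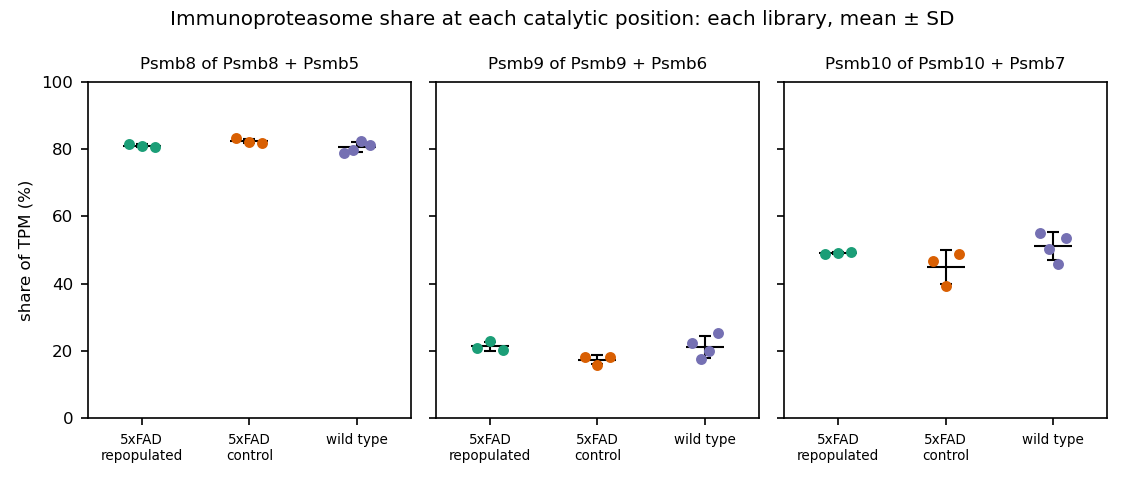
Share of TPM taken by the immunoproteasome gene of itself and its constitutive partner at each of the 3 catalytic positions, in each library (points) with mean ± SD, for repopulated, control and wild-type groups. Psmb8 takes 78.9% or more in every library, Psmb9 at most 25.2% and Psmb10 between 39.2% and 55.1%.

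Genes that work with the proteasome were read from 5 lists, beside the same background shares. In control against wild type, 10.1% of all tested genes rose and 8.04% fell. The shares were 3.4% and 0.784% in repopulated against wild type, and 0.352% and 0.216% in repopulated against control. Of 12 cofactors and maturation factors, 4 rose, 1 fell and 7 did not pass in control against wild type, with a median log2 fold change of 0.31. Pomp, the chaperone that drives maturation of the core, rose 1.74-fold, at 346, 396 and 300 CPM in control libraries and 162, 230, 240 and 168 CPM in wild-type libraries (edgeR adjusted p = 0.00341). The groups did not overlap, and Pomp was called in all 22 other settings. Ecpas, which tethers the core to the cap, rose 1.52-fold (adjusted p = 0.00524) and Sem1, a small lid subunit, 1.54-fold (adjusted p = 0.0104). Zfand5, a proteasome activator, rose 1.45-fold (adjusted p = 0.0357). It no longer passed without control 2 (0.223), nor without any of control 1, wild-type 3, wild-type 4, repopulated 1 and repopulated 2 (0.0512 to 0.0731). The ubiquitin receptor Adrm1 fell by 0.51 on the log2 scale (adjusted p = 0.0223, and 0.0553, 0.0953 and 0.0595 without control 1, control 2 and wild-type 4). With GC and length correction its log2 fold change was -0.088 (adjusted p = 0.728), and with the replicate block it was -0.48 (adjusted p = 0.0787). In repopulated against control none of the 12 passed; Pomp stood at 242, 223 and 278 CPM in repopulated libraries, under every control library, with a log2 fold change of -0.49 (adjusted p = 0.164).

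Of 8 genes that control transcription of proteasome subunits, 1 rose in control against wild type. It was Maff, a small Maf partner of the Nrf factors, with 40, 31 and 53 counts in control libraries and 0 in each wild-type library. It also rose in repopulated libraries (17, 18 and 24 counts) against wild type. Nfe2l1 and Nfe2l2, which encode the factors themselves, did not pass in any comparison. From the list of ubiquitin and shuttle genes, Rps27a, which encodes ubiquitin fused to a ribosomal protein, rose 2.08-fold in control against wild type (edgeR adjusted p = 0.000311), at 155, 163 and 124 CPM in control libraries and 71.4, 76.3, 83.6 and 52.1 CPM in wild-type libraries. The groups did not overlap. Processed copies of this gene in the genome make its estimated counts uncertain.

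The MHC class I list holds genes whose products receive or present the peptides that proteasomes make. In control against wild type 6 of 12 rose and 0 fell, with a median log2 fold change of 0.63. B2m, the light chain, had 7435, 5851 and 7093 CPM in control libraries and 2034, 2403, 3387 and 3463 CPM in wild-type libraries, 2.41-fold higher (edgeR adjusted p = 0.000328). The heavy chains H2-K1 (2.28-fold) and H2-D1 (2.65-fold), the chaperones Calr (1.58-fold) and Canx (2.36-fold) and the class I transactivator Nlrc5 (3.44-fold) also rose; reads of H2-K1 and H2-D1 could be shared with near-identical class I genes. Calr no longer passed without control 1 (adjusted p = 0.0654) or control 3 (0.0502). Tap1, the neighbour of Psmb8 and Psmb9, was at 0.59 and did not pass (adjusted p = 0.0539). It was called as higher in 9 of 22 other settings, DESeq2 and limma-voom among them. Its partner Tap2 was at -0.42 (adjusted p = 0.237). In repopulated against wild type 4 of 12 rose, B2m, H2-K1, H2-D1 and Nlrc5, with folds of 1.88, 1.93, 2.47 and 2.33. Without repopulated 2 the edgeR adjusted p was 0.209 for H2-K1, 0.199 for H2-D1 and 0.242 for Nlrc5, and most other left-out libraries also ended these 3 calls; B2m lost its call without repopulated 3 (0.0585). In repopulated against control Canx alone passed, at 4253, 3039 and 4520 CPM in repopulated libraries and 7791, 12399 and 7471 CPM in control libraries (adjusted p = 0.0387). It no longer passed without any 1 of the 3 repopulated libraries, control 1, control 2 or wild-type 4, with adjusted p up to 0.267 without repopulated 2.

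Interferon signalling, which is known to induce PA28 and the immunoproteasome, was read from 14 genes. In control against wild type 0 of 14 rose and 2 fell, with a median log2 fold change of 0.08. Ifngr1, a chain of the interferon gamma receptor, had 905, 863 and 1046 CPM in control libraries and 1657, 1704, 1955 and 1741 CPM in wild-type libraries, a fall of 1.88-fold (edgeR adjusted p = 0.000315). Irf1, a factor that switches on immunoproteasome genes, had 50.8, 41.0 and 51.5 CPM in control and 61.3, 60.6, 68.9 and 71.6 CPM in wild type (adjusted p = 0.0449). It was called in 6 of 22 other settings, and each library left out ended the call except wild-type 2 and repopulated 3, with the highest adjusted p, 0.175, without control 2. In repopulated against wild type Ifngr1 fell 1.6-fold, at 1085, 1040 and 1194 CPM in repopulated libraries (adjusted p = 0.00801, and 0.0603 and 0.0618 without repopulated 1 and repopulated 2).

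Members were similar to other tested genes in base composition, with a median GC content of 49.7% against 49.3%, and shorter, with a median transcript length of 1895 against 3411.5 bases. Over all tested genes the log2 fold change correlated with GC content at rho = -0.262 for control against wild type and 0.436 for repopulated against control, described without a test because genes of a library share its composition. With GC and length correction 9 members (18%) rose in control against wild type, Psmb8 and Psmb9 among them, against 19% of all genes, in a fit where the median of all genes itself stood at 0.17. Counts of the tested members in a library ran from 43 for Psma8 to 17454 for Psma3, and those of Psmd3 were 193 or more.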

How the data were processed

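Smart-Seq libraries of sorted hippocampal microglia were sequenced, and the build GRCm38.p6 and the tools HISAT and Bowtie2 are listed in the submitters' processing notes. Which program counted reads, and its version, is not given in the sources used here. Estimated counts (expected counts) per gene were deposited unnormalised, per the file headers. At a tolerance of 0.001, 20.1% of their nonzero values had a fractional part. TPM and FPKM were also deposited, both normalised by the authors for length and depth, per the file headers. TPM served for levels and ratios between genes and FPKM went unused.

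The members, lists and tests were chosen with earlier results of these data known. Counts were rounded and tested with edgeR 4.0.16 (R 4.3.3, limma 3.58.1, DESeq2 1.42.0), with filterByExpr, TMM, robust quasi-likelihood fits of the 3 groups over 10 libraries and Benjamini-Hochberg adjustment over 12505 genes at 0.05. Fold changes used a prior count of 0.125. The test was checked on simulated counts. Standard errors and 95% intervals come from the same fit. The biological coefficient of variation was 27.3%. No pair of libraries in a group agreed within sampling noise.

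Named genes are the catalytic subunits, the activators, the called members and up to 4 others per class or list by p; a few more were named for their libraries. Coordinates and promoter windows are RefSeq's on GRCm38.p6. GC content and length were found for 97.77% of tested genes and all 51 members. Alternatives were other scalings, tests and filters, each library left out, a replicate block, GC and length correction and Y-linked transcript status. Some items of the lists are not reported here.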

Additional observations from a re-analysis of the deposited data

Results flagged for a closer look

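In the tests for a library far from the others of its group, 3 of 54 gave a flag, where chance gives about 1 in 20. All 3 lie in the wild-type group of 4 libraries. Psmd5 stood at 118.2 CPM in wild-type 2, where the rest of its group ran from 79.8 to 84.0 CPM. Psme2 stood at 139.3 CPM in wild-type 1, against 191.7 to 199.9 CPM in the others. Psmg4 stood at 10.43 CPM in wild-type 3, against 6.377 to 6.788 CPM in the others. Without wild-type 1 Psme2 was still called as higher in control than in wild type.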

How the results depend on the processing

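In control against wild type, 3 members were called. Leaving out each replicate in turn gave 1 to 8, with 8 without wild-type 3 (6 higher, 2 lower) and 1, Psme1, without control 1. GC and length correction gave 9. Replicate numbers did not pair the samples (correlations of deviations from -0.105 to 0.071, and 0 of 9 libraries closest to their own number). The replicate block gave 2 calls, Psme1 and Psme2, and the replicate block with GC and length correction gave 5. When the fit also accounted for the presence of Y-linked transcripts, the 3 calls were Psme1 and Psme2 higher and Psmd5 lower. Psmb6 lost its call there. Leaving out the 3 libraries that lacked these transcripts left control 2 alone for its group. None of the 3 main calls was kept in that fit, whose calls rested on that library and are not listed. The members' median log2 fold change in it was 0.11. For repopulated against control, 0 members were called in the main fit. DESeq2 gave 1 (Psma3 lower), the compared groups alone 1 (Psmd3 higher) and GC and length correction 1 (Psme1 lower). The fit without the 3 libraries that lacked Y-linked transcripts again left control 2 alone for its group, and its calls are not listed. The replicate block and each left-out replicate gave 0. Repopulated against wild type gave 0 in every setting run, the replicate block included. Psme1 kept its call in 21 of 22 settings, Psme2 in 20 and Psmb6 in 11; the cause of the losses was not tested. Among log2 ratios, repopulated minus wild type changed sign for Psmb8 over Psmb5 without wild-type 1 (-0.00348) and for Psmb9 over Psmb6 without wild-type 2 (-0.094), without wild-type 3 (-0.011), without repopulated 2 (-0.048) and without the 3 libraries that lacked Y-linked transcripts (-0.094); with each replicate left out these 2 ratios ran from -0.00348 to 0.099 and from -0.094 to 0.13.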
